A study of Oryza sativa with 4 samples.

Results

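The loci described here are 10 rice genes of pathogenesis-related (PR) proteins and chitinases, taken by locus number from the 57995 loci of the series. They are PR1A, PR1B, 3 loci of the PR10 cluster (PBZ1 among them), 4 chitinase loci and 1 thaumatin-like locus. Leaf RNA came from seedlings of Oryza sativa, genotype Dongjin, grown for 7 days at 23 °C with 16 h of light and 8 h of dark. In 2 libraries the seedlings had been irrigated with 5 mM CysNO (S-nitrosocysteine, a small thiol that carries and releases nitric oxide), and in 2 control libraries with buffer (1 mM HCl) alone. No library had cysteine without nitric oxide, and the labels do not say whether the CysNO solution held the buffer, so nitric oxide and the other components of the solution cannot be told apart. The labels do not state whether the 2 libraries of each group were made from different plants, so the p-values reflect the spread among these libraries, and that spread could be technical alone.

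PR proteins accumulate in plant tissue after infection or treatment with defence hormones, above all salicylate and jasmonate, and their transcripts are widely used to read out whether a defence programme is running. PR1 proteins are small secreted proteins whose transcripts serve as markers of salicylate-linked defence in many plants. PR10 proteins are small, mostly intracellular proteins that resemble ribonucleases and ligand-binding proteins, and PBZ1 is named after probenazole, a compound that induces resistance in rice. Chitinases cut chitin, a polymer of fungal cell walls that plants lack, and thaumatin-like proteins form the PR5 class, some of which inhibit fungal growth.

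Values are FPKM (sequenced fragments divided by the length of the transcript and by the number of fragments mapped in that library, scaled), so levels can be set side by side between loci. The libraries summed to between 687469 and 732401 FPKM, and read counts are unknown. Taking control 1 as 1, relative depth was 0.825 in CysNO 1, 1.08 in CysNO 2 and 1.07 in control 2, from the mode of the ratios in 642 low loci. Of the loci fixed as leaf markers from general knowledge of their numbers, LOC_Os12g19394 was not listed. The 6 that were listed were all tested, and none of them passed. Their summed levels were 2483 and 3613 FPKM in CysNO against 5496 and 4014 FPKM in control. In bulk leaf, fewer cells of a type and less RNA per cell cannot be told apart. Of the 19 chloroplast-encoded psa and psb loci, 16 were listed at 0 in all 4 libraries, psbA and psaA among them. The libraries were oligo(dT)-selected, and whether that or a failed estimate gave these values of 0 was not tested. A value of 0 in these files thus need not mean that the transcript was absent. The library CysNO 2 stood apart in a marker list for root, whose 3 loci summed to 20.7 and 126 FPKM in CysNO 1 and CysNO 2, against 27.6 and 27.2 FPKM in control. Its excess came from LOC_Os02g44310, with 96.4 FPKM in CysNO 2 and 4.47 FPKM in CysNO 1 against 1.64 and 4.39 FPKM in control, and from Lsi1, a root silicon transporter gene, with 22.3 FPKM in CysNO 2 and 5.41 FPKM in CysNO 1 against 10.2 and 7.13 FPKM in control. The third, SCR, did not share it, at 10.9 and 6.96 FPKM in CysNO against 15.8 and 15.7 FPKM in control. Each of the 6 leaf markers was also higher in CysNO 2 than in CysNO 1. The 19 chloroplast-encoded loci summed to 5.54 and 29.2 FPKM in CysNO 1 and CysNO 2, against 10.2 and 13.3 FPKM in control. The 2 seed markers, the amylase genes AMY2A and Amy3B, summed to at most 1.93 FPKM in CysNO and 4.19 FPKM in control. Log2 fold changes of the 10 loci are therefore given with and without CysNO 2, and the part of root RNA in them was not tested.

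None of the 10 loci passed the test for a change after CysNO. All 10 reached 1 FPKM in 2 or more libraries and were tested, and 0 were called higher and 0 lower by limma at an adjusted p under 0.05. Over the 21123 tested loci, 3.27% were called higher and 0.956% lower (4.23% in either direction). At an unadjusted p under 0.05 there was 1 of the 10, the chitinase gene Cht3, against 18.1% of all tested loci. The median log2 fold change, CysNO over control on log2(FPKM + 1), was -0.10 over the 10 loci and -0.01 over all tested loci, and the median of its absolute value was 0.34 and 0.31. The values were above 0 in 5 loci and below 0 in 5. The libraries of the groups did not overlap in 1 locus with higher CysNO values (21.5% of all tested loci) and 1 with lower CysNO values (24.9%), 46.4% of tested loci showing 1 or the other.

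**Figure D1:**
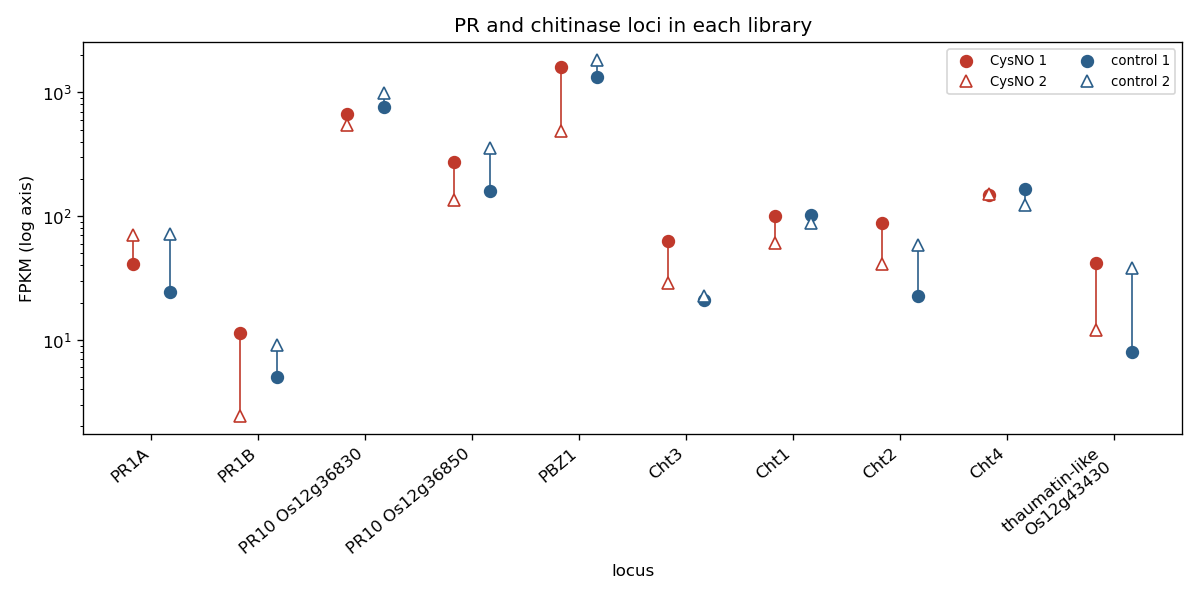
FPKM (log axis) of the 10 loci in each library, with CysNO (red) left of control (blue); filled circles are library 1, open triangles library 2, and lines join the libraries of a group. The groups overlap in every locus but Cht3, where both CysNO values lie above control, and the PR10 locus LOC_Os12g36830, where both lie below.

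PR1A and PR1B differed far more between libraries of a group than between groups. PR1A (LOC_Os07g03710, chromosome 7, bases 1511025 to 1511958, plus strand) had 40.99 and 70.97 FPKM in CysNO, against 24.6 and 71.3 FPKM in control. The CysNO values thus lay between the controls, and the log2 fold change was 0.35 ± 0.50 (SE; 95% interval -0.83 to 1.53; limma, adjusted p = 0.814), or -0.03 without CysNO 2. PR1B (LOC_Os01g28450, chromosome 1, bases 15933465 to 15934293, plus strand) was the lowest of the 10, with 11.4 and 2.41 FPKM in CysNO, against 5.01 and 9.12 FPKM in control. Here CysNO held both the highest and the lowest library, with a log2 fold change of -0.26 ± 0.59 (SE; 95% interval -1.65 to 1.12; limma, adjusted p = 0.89). Without CysNO 2 the log2 fold change of PR1B was 0.66, and without CysNO 1 it was -1.19, so 1 library sets its direction. PR1A exceeded PR1B 3.61-fold and 29.4-fold in the CysNO libraries, against 4.90-fold and 7.81-fold in the control libraries.

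The PR10 cluster held the most abundant transcripts of the 10, and none of its 3 loci passed the test. PBZ1 (LOC_Os12g36880, chromosome 12, bases 22566391 to 22567697, plus strand) had 1612 and 489 FPKM in CysNO, against 1336 and 1818 FPKM in control. CysNO 1 lay within the control range and CysNO 2 far below it, which gave a log2 fold change of -0.81 ± 0.61 (SE; 95% interval -2.23 to 0.61; limma, adjusted p = 0.583). Without CysNO 2 that value was 0.05, so the lower CysNO mean of PBZ1 came from that library. LOC_Os12g36850 (bases 22558115 to 22559961, plus strand) had 272 and 134 FPKM in CysNO, against 160.2 and 354 FPKM in control. Its groups overlapped, and its log2 fold change was -0.32 ± 0.49 (SE) by limma (adjusted p = 0.828) and 0.19 without CysNO 2.

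The third PR10 locus, LOC_Os12g36830 (bases 22547217 to 22548411, plus strand), had 663 and 542 FPKM in CysNO, against 755 and 986 FPKM in control. Both CysNO libraries lay below both controls, with a log2 fold change of -0.52 ± 0.37 (SE; 95% interval -1.39 to 0.35; limma, adjusted p = 0.554). It was the steadiest of the cluster, with libraries of a group differing 1.22-fold in CysNO and 1.31-fold in control, and it remained lower without CysNO 2, with a log2 fold change of -0.38. The 3 loci together made up 83.8% and 76.0% of the summed FPKM of the 10 in the CysNO libraries, against 86.5% and 88.5% in the control libraries. The order within the cluster changed in CysNO 2 alone, where LOC_Os12g36830 stood at 1.11 times PBZ1, against 0.411 times in CysNO 1 and 0.565 and 0.542 times in control. LOC_Os12g36850 stayed below both of its partners in all 4 libraries.

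Other loci lie between these 3, at levels far below theirs. LOC_Os12g36860 had 15.7 and 4.99 FPKM in CysNO against 21.8 and 20.1 FPKM in control (limma, adjusted p = 0.254), and LOC_Os12g36870 had 2.66 and 5.80 FPKM against 5.95 and 9.73 FPKM in control (limma, adjusted p = 0.362). In both, each CysNO library lay below each control, as in LOC_Os12g36830 and in 24.9% of all tested loci, and neither passed. LOC_Os12g36840 was at most 1.10 FPKM in CysNO and 0.761 FPKM in control. None of the 10 loci overlaps another locus in the files, but no source used here says how reads shared by similar neighbours were divided, so values within a cluster of like genes are uncertain to that extent.

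**Figure D2:**
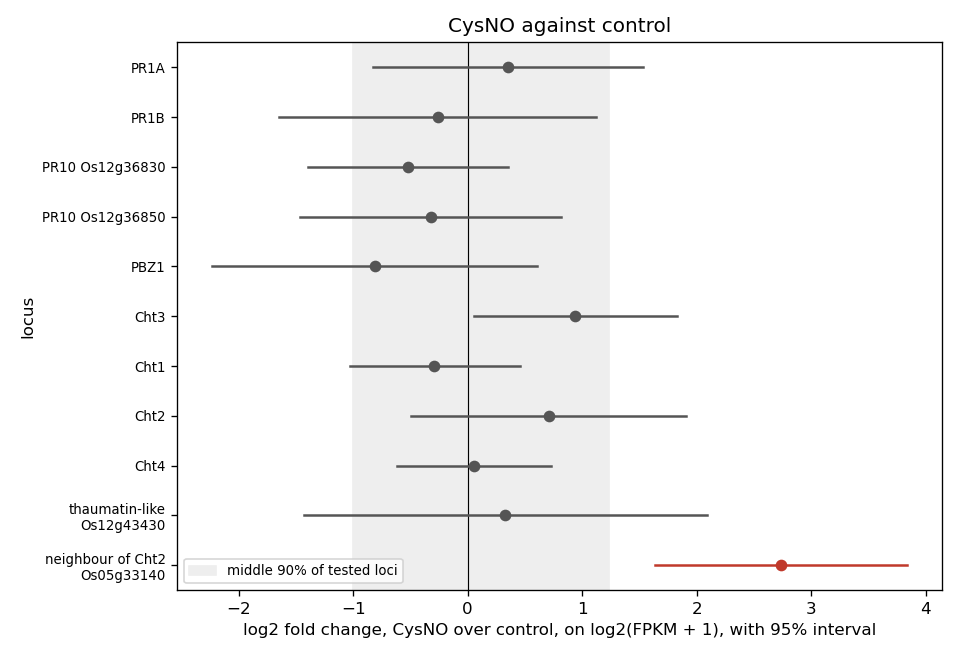
Log2 fold change, CysNO over control, on log2(FPKM + 1), with its 95% interval from limma, for the 10 loci and for LOC_Os05g33140, the neighbour of Cht2; the shaded band holds the middle 90% of all tested loci, from -1.0 to 1.24. The 10 points lie inside the band, and the neighbour at 2.74 lies outside it.

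None of the 4 chitinase loci passed, and Cht3 had the largest log2 fold change of the 10. The log2 fold change was above 0 in Cht2, Cht3 and Cht4 and below 0 in Cht1. A change of the 4 together was not tested. Names were paired with these loci from general knowledge and checked against a RefSeq gene table. In it, genes called Cht1 to Cht4 lie on the same chromosomes, with spans that differ from those in the files by at most 0.755%. Cht1 and Cht3 share a chromosome, with spans of 1350 and 1257 bp in the gene table, so the 10% limit alone does not tell them apart. Cht3 (LOC_Os06g51050, chromosome 6, bases 30886217 to 30887473, plus strand) had 63.2 and 28.9 FPKM in CysNO, against 20.9 and 22.7 FPKM in control. Both CysNO libraries were higher than both controls, by a log2 fold change of 0.94 ± 0.38 (SE; 95% interval 0.06 to 1.83; limma, unadjusted p = 0.0399, adjusted p = 0.246). The difference between the CysNO libraries was larger than that between CysNO 2 and the controls, and the log2 fold change was 0.39 without CysNO 1 and 1.49 without CysNO 2. Cht1 (LOC_Os06g51060, bases 30889713 to 30891068, plus strand), whose start lies 3496 bp further along, had 99.7 and 60.6 FPKM in CysNO, against 103 and 87.6 FPKM in control. Its groups overlapped, and Cht1 did not pass, its log2 fold change being -0.29 ± 0.32 (SE) by limma (adjusted p = 0.75), or 0.07 without CysNO 2.

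The proportions within this tandem pair did not overlap between the groups. The ratio of Cht3 to Cht1 was 0.633 and 0.477 in the CysNO libraries, against 0.203 and 0.259 in the control libraries, a difference of 1.26 in the log2 ratio. The exact two-sided permutation p was 0.333. With 2 against 2 libraries it cannot be smaller, so this test could not pass and gives the separation no support. This pair and the other ratios were picked with values in view, and a ratio shows unequal change of the members and not which of them changed. The ratios among the 3 PR10 loci, and that of PR1A to PR1B, overlapped between the groups. Only that of LOC_Os05g33140 to Cht2, given below, was also separate.

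Cht2 (LOC_Os05g33130, chromosome 5, bases 19363900 to 19365359, plus strand) had 88.8 and 40.8 FPKM in CysNO, against 22.6 and 58.3 FPKM in control. CysNO 2 fell between the controls, so the groups overlapped, and the log2 fold change was 0.71 ± 0.51 (SE; 95% interval -0.49 to 1.91; limma, adjusted p = 0.564). Leaving out CysNO 2 gave 1.26 and leaving out CysNO 1 gave 0.16, while leaving out control 1 gave 0.05 and control 2 gave 1.37, so single libraries set its size. Cht4 (LOC_Os04g41620, chromosome 4, bases 24502569 to 24504169, minus strand) had 148 and 152 FPKM in CysNO, against 167 and 124 FPKM in control. It was the steadiest of the 10 loci between groups, with a log2 fold change of 0.06 ± 0.29 (SE; 95% interval -0.62 to 0.73; limma, adjusted p = 0.955), or 0.04 without CysNO 2. In the gene table its synonym is OsChia2b while Cht1, Cht2 and Cht3 carry the synonyms OsChia1a, OsChia1b and OsChia1c. Together the 4 loci summed to 399.6 and 282 FPKM in CysNO, against 313 and 293 FPKM in control.

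A chitinase gene outside the 10, next to Cht2, rose. LOC_Os05g33140 starts 8942 bp after Cht2 in the files, and the gene table has a gene called Cht9 (also Cht1) 8938 bp after Cht2, with a span of 1373 bp against 1377 bp in the files. It had 64.99 and 33.7 FPKM in CysNO, against 3.70 and 9.90 FPKM in control. The log2 fold change of this locus was 2.74, with a standard error of 0.47 (limma, adjusted p = 0.0238). Both CysNO libraries lay above both controls, and the adjusted p was 0.0723 with median centring, 0.0713 with quantile normalization and 0.125 with the replicate number as a block, so the call was lost, at log2 fold changes of 2.75, 2.70 and 2.74. It was lost as well with no filter (0.179), at 2.74. Without CysNO 1 the log2 fold change was 2.28 (adjusted p = 0.361) and without CysNO 2 it was 3.20 (adjusted p = 0.226), by limma, in fits that called 0 and 1 of all loci higher. The ratio of this locus to Cht2 was 0.732 and 0.828 in the CysNO libraries, against 0.164 and 0.170 in the control libraries. The exact two-sided permutation p was 0.333, below which this test cannot go, so it gives that separation no support. LOC_Os05g33150, at the place of Cht7 in the table, was listed at 0 in both CysNO libraries, against 0.285 and 0 FPKM in control. LOC_Os04g41680, at the place of Cht5 beside Cht4, had 129 and 149 FPKM in CysNO against 147 and 67.1 FPKM in control and did not pass (limma, adjusted p = 0.637).

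**Figure D3:**
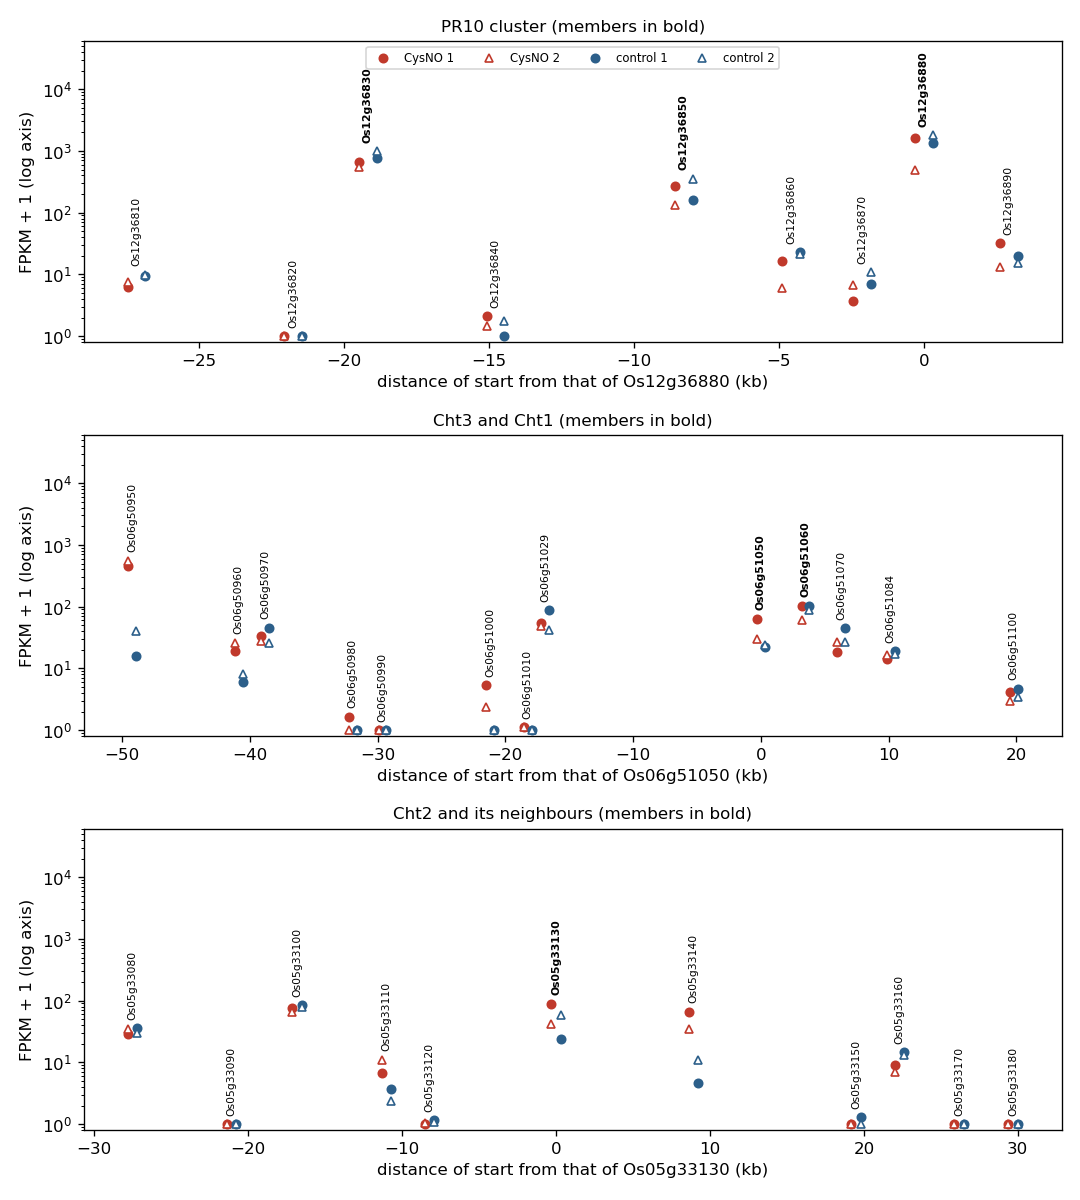
FPKM + 1 (log axis) of loci around the PR10 cluster, Cht3 and Cht1, and Cht2, against the distance of each start from that of a member in kb; CysNO is red and left, control blue and right, library 1 filled and library 2 open, and the 10 loci are in bold. LOC_Os05g33140 beside Cht2 and LOC_Os06g50950 before Cht3 lie higher in both CysNO libraries, while PBZ1 in CysNO 2, at 489 FPKM, lies below both of its controls.

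The thaumatin-like locus LOC_Os12g43430 (chromosome 12, bases 26913234 to 26914099, minus strand) had the largest within-group gaps of the 10, summed over both groups. It had 41.7 and 12.05 FPKM in CysNO, against 7.99 and 38.1 FPKM in control. Each group held 1 high and 1 low library, and the log2 fold change was 0.33 ± 0.75 (SE; 95% interval -1.43 to 2.09; limma, adjusted p = 0.89). It was 1.19 without CysNO 2 and -0.52 without CysNO 1. Its libraries differed 3.46-fold in CysNO and 4.76-fold in control, gaps reached by 0.952% and 0.828% of tested loci. The locus listed after it, LOC_Os12g43440, had 28.9 and 19.5 FPKM in CysNO against 15.3 and 12.01 FPKM in control. Its CysNO libraries lay above both controls, as in 21.5% of all tested loci, and it did not pass (limma, adjusted p = 0.234).

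Many of these loci, though not all, spread widely between libraries of one group. In 9 of 10 the larger of the 2 within-group gaps, on log2(FPKM + 1), exceeded the change between groups, LOC_Os12g36830 being the exception; the same held for 65.9% of all tested loci. The median gap between the libraries of a group was 1.06 in CysNO and 0.60 in control over the 10 loci, against 0.32 and 0.30 over all tested loci. Ordinary gaps were those of Cht4, as large in 94.3% of tested loci in CysNO and 37.4% in control, and of LOC_Os12g36830, at 54.5% and 40.5%. In control the same was true of Cht1, at 59.8%, Cht3, at 79.5%, and PBZ1, at 34.9%. Among loci reaching 5 FPKM in 2 or more libraries, a filter that all 10 pass, the medians were 0.32 and 0.28. The gap between the CysNO libraries was 1.86 for PR1B, 1.72 for PBZ1 and 1.71 for the thaumatin-like locus, sizes reached by less than 1% of tested loci (0.658%, 0.914% and 0.952%). The gap between the controls was largest for the thaumatin-like locus (2.12), PR1A (1.5) and Cht2 (1.33).

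These gaps also pointed the same way in most of the loci. CysNO 1 was higher than CysNO 2 in 8 of 10, against 60.6% of all tested loci, with PR1A and Cht4 the other way. Control 2 was higher than control 1 in 8 of 10, against 37.5% of all tested loci, with Cht1 and Cht4 the other way. Both held in 7 of 10 (PR1B, the 3 PR10 loci, Cht2, Cht3 and the thaumatin-like locus), against 25.2% of all tested loci. Each direction compared here is the one most of the 10 loci show, and 3 of the 7 lie in 1 cluster. The shares over all loci are thus a description and not a test. Of the 10 loci, 4 had their highest value in CysNO 1, 4 in control 2 and 2 in control 1, while 5 had their lowest in CysNO 2, 4 in control 1 and 1 in control 2. The summed level ran with this, at 3041 and 1532 FPKM in CysNO 1 and CysNO 2 (0.415% and 0.223% of the library), against 2602 and 3569 FPKM in control 1 and control 2 (0.374% and 0.515%). CysNO 1 had the lowest relative depth, and CysNO 2 stood apart in some root and chloroplast loci. The part of either in these gaps was not tested.

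**Figure D4:**
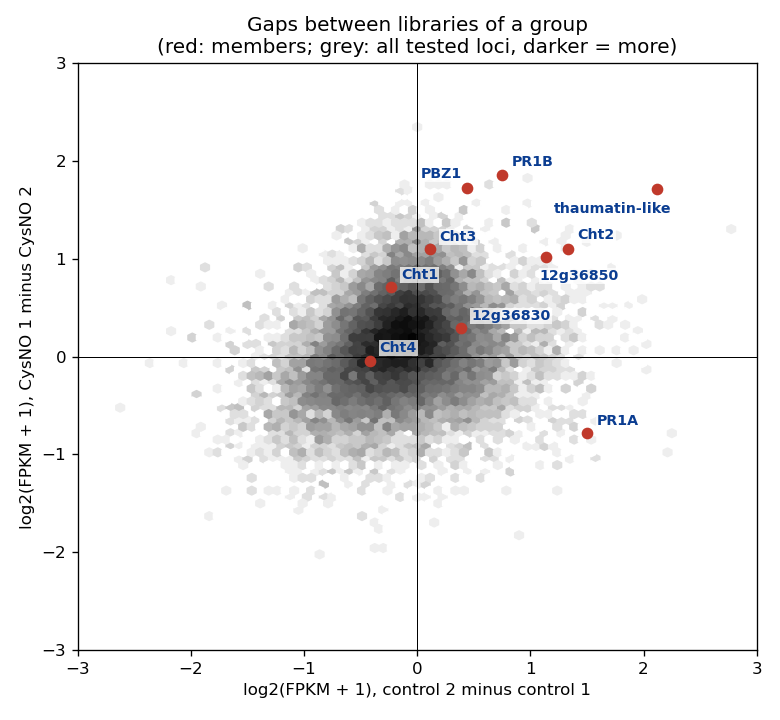
Difference in log2(FPKM + 1) between the CysNO libraries (1 minus 2, vertical) against that between the control libraries (2 minus 1, horizontal), for the 10 loci (red) and all tested loci (grey, darker where more loci lie). The upper right part, where both differences are above 0, holds 7 of the 10 loci and 25.2% of all tested loci. Each axis points the way most of the 10 loci go, so these shares describe and do not test.

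By level the 10 loci kept much of their order in both groups. The 3 PR10 loci came first, then Cht4 and Cht1, with mean levels in CysNO of 1051, 603, 203, 149.8 and 80.2 FPKM, against 1577, 870.3, 257, 145 and 95.4 FPKM in control, and PR1B came last at 6.89 ± 6.33 FPKM in CysNO and 7.07 ± 2.90 FPKM in control (SD, n = 2 each). PR1A, Cht2, Cht3 and the thaumatin-like locus lay between, from 26.9 to 64.8 FPKM in CysNO and from 21.8 to 47.9 FPKM in control. Of the 9 steps from a locus to the next in this order, the libraries were separate at 3 in CysNO and at 5 in control, so much of the order is not resolved, PBZ1 against LOC_Os12g36830 in CysNO and LOC_Os12g36850 against Cht4 in both groups included. PBZ1 and LOC_Os12g36830 lay above 99.9% and 99.7% of tested loci by mean level, and PR1B above 41.2%.

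Around the 10 loci few other loci passed, and few defence genes had a symbol in the files. Of 134 loci numbered within 100 of a member, 59 were tested, 3 rose and 0 fell; these 3 are 5.08% of those tested, near the 3.27% of all loci. Besides LOC_Os05g33140 they were LOC_Os06g50950 and LOC_Os06g50960, before Cht3 on chromosome 6, which the sources used here do not name. LOC_Os06g50950 had 454 and 552 FPKM in CysNO, against 14.6 and 39.3 FPKM in control, with 4.32 ± 0.45 (SE) as its log2 fold change (limma, adjusted p = 0.00517). Its call was lost with no filter (0.102), without CysNO 1 (0.25) and without CysNO 2 (0.214). LOC_Os06g50960 had 17.9 and 25.1 FPKM in CysNO, against 5.07 and 7.23 FPKM in control (limma, adjusted p = 0.0311). That call was lost with quantile normalization (0.0723), median centring (0.0803), the replicate block (0.0909) and no filter (0.146), and without control 1 (0.087), CysNO 1 (0.275) or CysNO 2 (0.256). Neither lies next to Cht3, and the loci between them and Cht3 did not pass or were too low to test. The symbol patterns for PR proteins, chitinases, glucanases and related inhibitors matched 1 locus, Xip, the gene of a xylanase inhibitor protein, which had 1.30 and 2.17 FPKM in CysNO against 3.71 and 3.51 FPKM in control and did not pass (limma, adjusted p = 0.259).

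The patterns for defence signalling matched 2 loci, of which 1 was called higher. Over all tested loci 3.27% were called higher, and 2 loci are too few to read as a share. PAL5, for phenylalanine ammonia-lyase at the entry to phenylpropanoid synthesis, had 275 and 204 FPKM in CysNO, against 48.5 and 69.6 FPKM in control (limma, adjusted p = 0.0173). The call was lost with quantile normalization (0.0507), median centring (0.0509), the replicate block (0.114) and no filter (0.122), and without control 1 (0.054), CysNO 1 (0.282) or CysNO 2 (0.214). WRKY71, a defence-related transcription factor gene, had 984 and 1139 FPKM in CysNO, against 623 and 434 FPKM in control, and did not pass (limma, adjusted p = 0.211).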

How the data were processed

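The 4 FPKM tables, 1 per library, were used as the authors deposited them, with FPKM named per the file headers. The libraries were oligo(dT)-selected TruSeq libraries sequenced as 100 bp pairs, per the labels' protocols. For alignment, Bowtie 0.12.2 is listed in the submitters' processing notes beside mm8, which is a mouse build. Which build the coordinates follow, how fragments were counted and what was filtered is not stated there, so reads shared by similar loci may have been divided in any way, and depth is unknown. Loci reaching 1 FPKM in 2 or more libraries were tested on log2(FPKM + 1), which understates changes of low loci, with limma 3.58.1 (R 4.3.3, mean-variance trend, 2 residual and 5.36 prior degrees of freedom), two-sided, with Benjamini-Hochberg adjustment over all 21123 tested loci. The script was tested on simulated data. The members, lists and ratios were chosen with earlier results of these data known. The members were all named, as were listed loci that passed, up to 5 per list. Loci beside PR10, Cht2, Cht4 and the thaumatin-like locus that did not pass were named after their values were seen. Chitinase names need the same chromosome in the gene table (assembly ASM3414082v1) and a span within 10% of it (PBZ1, at 11.9%, keeps the name given with its number), and neighbours also a like distance from the member. No sequences were used here.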

Additional observations from a re-analysis of the deposited data

How the results depend on the processing

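In the 12 alternatives fixed at the start, 0 of the 10 members passed in either direction. Leaving out 1 library reversed 7 of them, and 3 (LOC_Os12g36830, Cht3 and Cht2) kept their direction, with ranges of -0.72 to -0.33, 0.39 to 1.49 and 0.05 to 1.37. The log2 fold change then ran from -0.39 to 1.10 for PR1A, from -1.19 to 0.66 for PR1B, from -0.89 to 0.25 for LOC_Os12g36850, from -1.67 to 0.05 for PBZ1, from -0.64 to 0.07 for Cht1, from -0.15 to 0.27 for Cht4 and from -0.73 to 1.39 for the thaumatin-like locus. Quantile normalization reversed Cht4 (-0.12). The cause was not tested.

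Over all loci, 691 were higher and 202 lower. The counts were 393 and 87 with quantile normalization, 381 and 68 with median centring, 2 and 0 with no filter, 172 and 14 at an adjusted p under 0.01, and 53 and 2 with the replicate block. Leaving out 1 library gave 0 to 816 higher and 0 to 484 lower. Of the neighbours, 3 were higher, against 1 with quantile normalization, median centring, the replicate block or an adjusted p under 0.01, 0 with no filter and 0 to 4 with a library left out (0 to 1 lower). PAL5, the 1 call among the symbol lists, was lost (0) under the same alternatives, and leaving out a library gave 0 to 1. The replicate numbers pair nothing in the labels, and deviations of same-numbered libraries correlated at -0.1857 over tested loci. A crossed replicate block, added after that was seen, called 1625 loci higher and 1206 lower, 6 and 3 of the neighbours and 1 of the members, Cht3, higher.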
